A study of Acipenser schrenckii with 5 samples.

Results

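The heart of the Amur sturgeon (Acipenser schrenckii) was profiled for microRNA (miRNA) content on 1 of 5 microarrays, and is described here against muscle, brain, spleen and liver. The heart array was chosen by its tissue label alone, and it is 1 of the 5 samples. All tissues came, by the study's methods, from 1 young fish of no stated genotype or treatment, and each tissue was hybridized once, so the tissues cannot be compared over replicates and no p-value is given. Each array carried 663 miRNA probes, printed in 5 repeat spots, of which 615 were designed to miRNAs of other fishes and 48 to sequences that the study assigned to sturgeon. The ± values below are SDs over the 5 spots of a probe and are technical.

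miRNAs are short RNAs that guide silencing complexes to messenger RNAs, and their seed, bases 2 to 8 from the 5′ end, takes most part in choosing the targets. In vertebrates miR-1 and miR-133 are made in striated muscle, both cardiac and skeletal. miR-499 lies within an intron of a myosin heavy chain gene and is made in heart and slow muscle, and miR-206, which shares the seed of miR-1, is known from skeletal muscle. miR-208, which lies in other myosin genes of mammals, had no probe on the array.

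The miRNAs that set the heart apart from the other tissues, or whose close relatives behaved differently there, have the sequences below, taken from the deposited array files and printed 5′ to 3′ with the seed in capitals. The prefixes stand for the species of the design (dre zebrafish, ipu channel catfish, ola medaka, ccr carp, fru fugu, pol olive flounder, hhi Atlantic halibut), and names such as novel_13 are those of the study's own sequences.
dre-miR-499: uUAAGACUugcagugauguuua
ipu-miR-499: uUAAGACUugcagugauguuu
novel_13: uUAAGACUugcagugauguuuac
ola-miR-499: aACAUCACuuuaagucugugc
dre-miR-1: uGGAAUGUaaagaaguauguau
dre-miR-206: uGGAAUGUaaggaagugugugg
dre-miR-133a-3p: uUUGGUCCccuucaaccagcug
pol-miR-133-5p: gCUGGUCAaacggaaccaaguc
dre-miR-133b-5p: gCUGGUCAaauggaaccaaguc
dre-miR-150: uCUCCCAAuccuuguaccagug
dre-miR-2184: aACAGUAAgaguuuaugugcu
dre-miR-193a: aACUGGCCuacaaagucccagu
dre-let-7a: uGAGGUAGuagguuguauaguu
dre-let-7i: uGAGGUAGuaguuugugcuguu
dre-miR-7a: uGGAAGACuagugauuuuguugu

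The first 3 sequences share the seed UAAGACU and differ only in length at the 3′ end, so novel_13 reads the same miRNA as the zebrafish and catfish miR-499 probes. The sequence of ola-miR-499 has another seed and represents the opposite arm of the precursor. dre-miR-1 departs from dre-miR-206 by A11G, A17G, A21G and U22G, and dre-let-7a from dre-let-7i by G12U, A17G, U18C and A19U (base of the first named, position counted from the 5′ end, base of the second). Of the 663 probes, 417 (62.9%) lay within 2 edits of another probe, so signals of near relatives may be shared through cross-hybridization, which was not tested.

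Of the 663 probes, 345 were detected in heart, against 431 in muscle, 370 in brain, 333 in spleen and 197 in liver, and 477 were detected in at least 1 tissue. No probe was detected in heart alone. Of the probes seen elsewhere, 132 were not detected in heart, 6 of them being detected in all 4 of the other tissues. Detection was judged against the SD of empty spots on each array, which was 13.1 for heart. Muscle, with the smallest SD (4.91), had the most detected probes, and liver, with the largest (58.5), the fewest. Spleen had fewer than heart despite a smaller SD (5.90), and brain more despite a larger one (17.6). How far such counts reflect array background rather than tissue content was not tested. The probes shared by heart and muscle alone numbered 10, namely 2 miR-499 probes, 2 probes of the 5′ arm of miR-1, 3 of miR-133-5p, and dre-miR-429b, ola-miR-101b-5p and novel_23. Across probes detected in both tissues, log2 Signal in heart correlated with muscle at r = 0.78 (334 probes) after cyclic loess normalization, described below. The same value was 0.65 for brain (307), 0.66 for spleen (298) and 0.70 for liver (181). Without normalization between arrays r was 0.80 for muscle, 0.72 for brain, 0.76 for spleen and 0.71 for liver. Muscle was highest under both settings, while the order of the other tissues changed. Each value was taken over its own set of probes, cut at the detection limits of both arrays, so the order may depend on those limits. These are descriptions over probes of the same arrays, many of near-identical sequence, and give no measure of error.

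How high the heart stood depended on the normalization between arrays. Over all probe spots, the raw density had a median of 112.5 in heart and of 92.2 to 167.7 in the other tissues, yet its 75th percentile was 1043 in heart, against 446 for muscle, 1016 for brain, 555 for spleen and 353 for liver. Without normalization between arrays, the median ratio of heart to muscle over probes detected in both was 3.21, that to brain 1.14, to spleen 1.94 and to liver 4.08. After cyclic loess, which draws the arrays together over their range of intensity, the same medians lay between 0.815 and 0.936. The 25 calibration spike controls detected on every array, which do not measure tissue RNA, had median heart ratios of 1.28 to muscle, 0.99 to brain, 1.16 to spleen and 1.12 to liver, and 4 probes of 5S rRNA had 0.885, 0.953, 1.04 and 0.892 in the same order. Single spike controls varied more, with heart ratios from 0.358 to 2.08 for muscle, 0.38 to 1.34 for brain, 0.877 to 4.05 for spleen and 0.691 to 3.27 for liver. The median of the controls thus lay closer to 1 than that of the unnormalized miRNA probes, which were brighter in heart than in muscle, spleen and liver. Whether the heart sample held more miRNA per amount of RNA, or whether labelling differed, cannot be told apart with these files, and in bulk tissue fewer cells of a type cannot be told apart from less RNA per cell. Values below are therefore given after loess and, where they differ, without normalization.

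**Figure D1:**
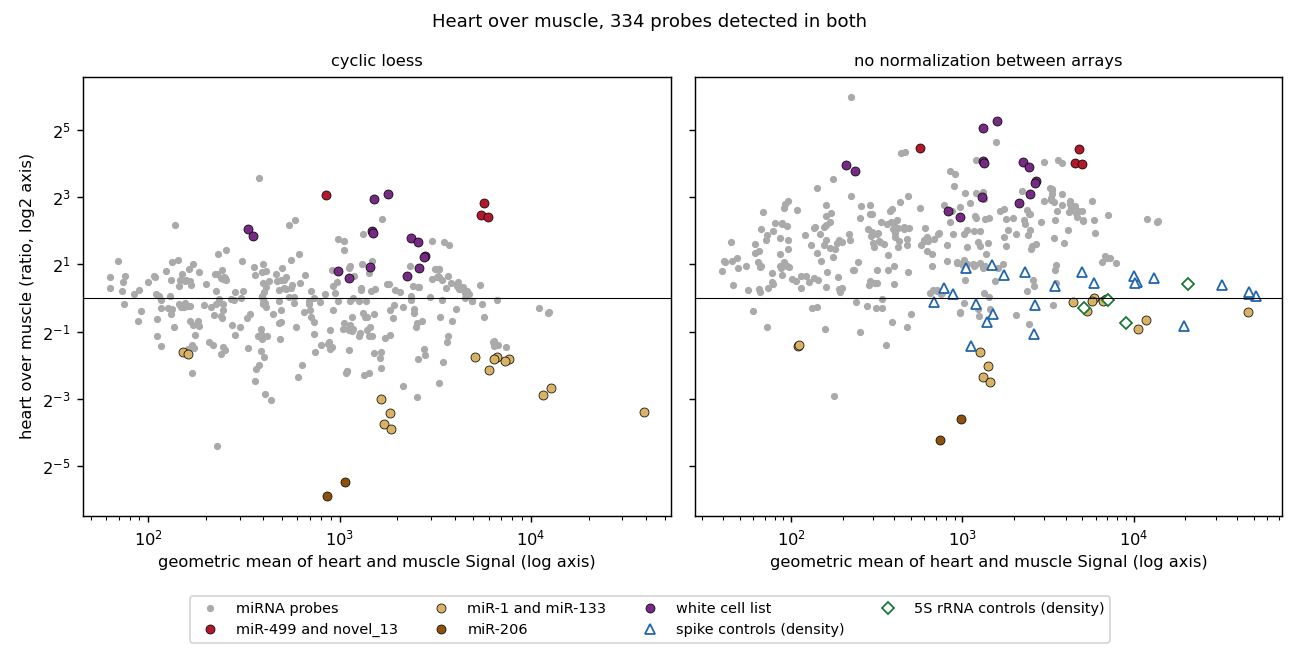
Ratio of heart to muscle Signal (log2 axis) against the geometric mean of both (log axis) for the 334 probes detected in both, after cyclic loess (left) and without normalization between arrays (right), where spike and 5S rRNA controls are drawn from their densities. miR-499 and novel_13 stand above 1 and miR-1, miR-133 and miR-206 at or below 1 on both sides, while the cloud of other probes lies near 1 on the left and around 3.21 on the right.

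Signal was highest in heart for 36 of the 477 probes (7.55%) after loess, and for 141 (29.6%) without normalization, and 31 probes were in both counts. Of the 36, 34 were detected in heart, and with undetected tissues set to the detection limit only 22 kept a heart ratio above 1, against 133 of the 141. Of the 36, the Signal of every heart spot exceeded that of every spot elsewhere for 11 probes. After loess only 4 of the 345 probes detected in heart (1.16%) were at least 2-fold higher than in each other tissue, and all 4 were miR-499 probes, novel_13 included. Without normalization 17 probes passed (4.93%). They were the same 4, and probes of miR-145, miR-146a, miR-150, miR-193a, miR-210, miR-223 and miR-2184.

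miR-499 was the miRNA that best marked the heart. The Signal of dre-miR-499 was 12797 ± 2640 in heart, against 2335 ± 267 in muscle and 82.0 ± 9.97 in spleen, and the probe was not detected in brain or liver. One heart spot was dim, with a density of 11335 against 19545 to 20436 for the other 4. Every heart spot of dre-miR-499 still lay above every spot of every other tissue. The ratio to muscle was 5.48 ± 1.29, that to spleen 156, and with the detection limit in place of undetected values heart was at least 35-fold above liver and at least 220-fold above brain. Without normalization the ratio to muscle was 16.1 ± 3.93. The spleen value lay near the lowest detected Signal of that array, 56.1 after loess, so the size of the ratio to spleen is uncertain. In spleen the spots of dre-miR-499 read 23.5 to 40.2 without normalization, against 11294 to 20395 in heart.

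The catfish design of miR-499 gave the same order. ipu-miR-499 had a Signal of 13709 ± 241 in heart, against 2573 ± 481 in muscle, and was detected nowhere else. novel_13 had 15110 ± 987 in heart, against 2146 ± 162 in muscle and 88.9 ± 13 in spleen. Their ratios of heart to muscle were 5.33 ± 1.0 and 7.04 ± 0.70 after loess, and 15.9 and 21.5 without normalization. The opposite arm, ola-miR-499, reached 2460 ± 141 in heart, against 297 ± 39.9 in muscle, an 8.29-fold difference. The liver array, with the highest detection limit, left for this arm a bound of at least 6.73-fold. Within each of the 4 probes no spot outside the heart reached the heart spots of that probe under either setting.

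**Figure D2:**
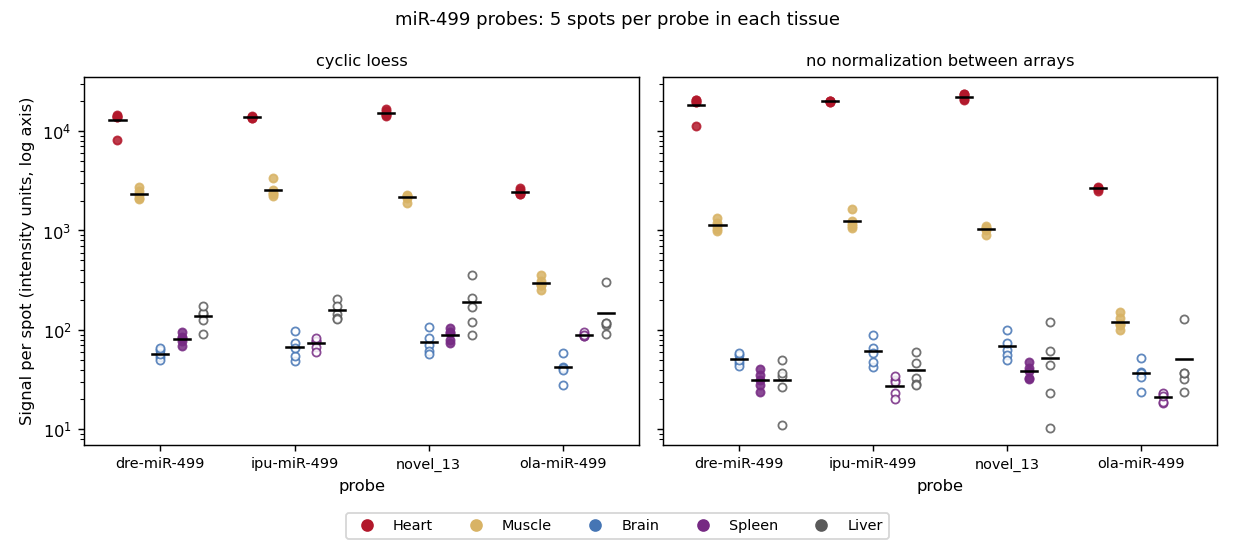
Signal of the 4 miR-499 probes on a log axis, 5 spots per probe in each tissue (heart leftmost), after cyclic loess (left) and without normalization between arrays (right); bars are means, and open circles mark tissues where the probe was not detected. Within each probe all heart spots lie above all others, muscle has the second highest mean, and 1 heart spot of dre-miR-499 is dim.

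The other miRNAs of striated muscle were present in heart at high Signal but stood higher in muscle. dre-miR-1 had 5050 ± 272 in heart, against 32078 ± 1855 in muscle and 764 ± 29.6 in brain, and was not detected in spleen or liver. dre-miR-133a-3p had 3599 ± 109 in heart, against 12226 ± 1113 in muscle and 293 ± 32.0 in brain. After loess heart had 0.157 of the muscle Signal of dre-miR-1 and 0.294 of that of dre-miR-133a-3p. Without normalization dre-miR-1 had 9400 ± 526 in heart, against 14876 ± 840 in muscle (ratio 0.63), and dre-miR-133a-3p 5861 ± 214 in heart, against 5899 ± 543 in muscle (ratio 0.99). Thus miR-1 was lower in heart than in muscle under both settings, whereas the difference in miR-133a-3p was within the spot SDs without normalization.

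The probes of both families read in the same direction. Many of them are near-identical in sequence and share the same arrays, so they are not replicates of the comparison. All 4 miR-1 probes were lower in heart than in muscle after loess, by 3.06- to 7.35-fold, and without normalization by 1.58- to 2.70-fold. All 11 miR-133 probes detected in both tissues were lower in heart, by 3.39- to 14.9-fold after loess and 1.01- to 5.63-fold without normalization. The 5′ arm of miR-133a was further below muscle than its 3′ arm. dre-miR-133a-5p had 560 ± 51.2 in heart, against 5998 ± 522 in muscle, which is 0.0933 of the muscle Signal after loess and 0.244 without normalization. It was not detected in brain, spleen or liver.

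miR-206 was low in heart. dre-miR-206 had 160 ± 11.6 in heart, against 7066 ± 383 in muscle, 621 ± 49.7 in brain, 498 ± 20.5 in spleen and 562 ± 155 in liver. It was 44.2-fold lower in heart than in muscle after loess and 12.2-fold lower without normalization. After loess it was also lowest in heart of all the tissues, but without normalization the heart Signal of 280 ± 11.9 lay above the 204 ± 62.7 of liver. Over the 19 probes of striated muscle (miR-1, miR-133 and miR-499), 18 were detected in heart, 11 were at least 2-fold above the mean of the other tissues and 2 at least 2-fold below it, against 31 (6.5%) above and 129 (27%) below among the 477 probes. The median log2 difference of heart from the mean of the other tissues was 2.41 for this list, against −0.51 for all 477. Without normalization 15 of the list were at least 2-fold above and none as far below, against 41.9% and 9.43% of the 477 probes, and the medians were 3.92 and 0.59. The medians over all 477 probes include undetected values set to the detection limit, which was highest for liver. Over the 170 probes detected in all 5 tissues the median was −0.20 after loess and 1.35 without normalization.

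A probe of the 5′ arm stood apart from its family. pol-miR-133-5p had 12079 ± 756 in heart, against 126306 ± 4414 in muscle, 24053 ± 1474 in brain, 20156 ± 1126 in spleen and 44249 ± 3770 in liver. After loess the muscle value exceeded the highest density of any probe spot on that array, 56526. Without normalization it had 40154 in heart, against 53860 in muscle, 51299 in brain, 35051 in spleen and 26970 in liver. It was thus bright on every array, unlike the rest of its family. dre-miR-133b-5p, which differs from pol-miR-133-5p only by U11C, was not detected in heart and was detected in muscle alone, at 108 ± 21.7. What pol-miR-133-5p bound on these arrays was not tested.

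**Figure D3:**
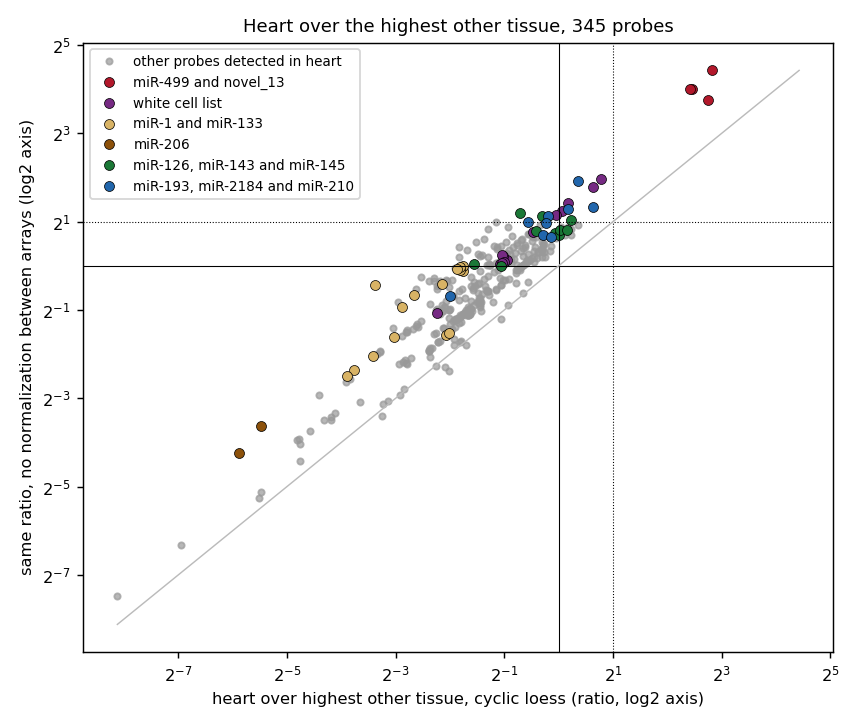
Heart Signal over that of the highest other tissue for the 345 probes detected in heart, after cyclic loess (x) and without normalization between arrays (y), both on log2 axes, with solid lines at 1, dotted lines at the 2-fold limits and a grey line where both settings are equal. The miR-499 probes stand apart at the upper right, miR-206 lies at the lower left among the named families, and nearly all other probes lie above the line of equality.

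Outside miR-499, the miRNAs highest in heart exceeded the next tissue by small ratios. dre-miR-150, known from mature lymphocytes, had 4199 ± 170 in heart, against 540 ± 49.2 in muscle, 883 ± 55.0 in brain and 2450 ± 238 in spleen, and was not detected in liver. Its heart spots lay above all others, and the ratio to spleen was 1.71 ± 0.18 after loess and 3.92 ± 0.45 without normalization. The medaka probe, ola-miR-150, had ratios of 1.55 ± 0.12 and 3.47 ± 0.25. dre-miR-2184 had 1732 ± 83.7 in heart, against 638 ± 37.4 in muscle, 1124 ± 69.3 in brain, 308 ± 26.1 in spleen and 904 ± 220 in liver. It was thus highest in heart, with a ratio to brain of 1.54 ± 0.12 after loess and 2.52 ± 0.19 without normalization.

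dre-miR-193a had 1043 ± 40.8 in heart, against 815 ± 28.1 in muscle, 143 ± 64.5 in brain and 371 ± 22.4 in spleen. The ratio of heart to muscle was 1.28 ± 0.067 after loess and 3.81 ± 0.24 without normalization, but with each array scaled to its 75th percentile the order turned, at 0.669. The medaka probe, ola-miR-193a, had 1147 ± 492 in heart, with 1 dim spot, against 1705 ± 84.7 in muscle, a ratio of 0.673 after loess and 2.0 without normalization. Whether miR-193a was highest in heart or in muscle therefore depended on the probe as well as the scaling. novel_63, which shares its seed UGGUUUC with the catfish probe ipu-miR-29c, had 1577 ± 219 in heart, against 823 ± 79.8 in muscle, 1395 ± 56.8 in brain and 183 ± 17.9 in spleen. Its ratio to brain of 1.13 ± 0.16 was within the spot error.

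For the remaining families at the head of the ranking, the heart spots overlapped those of another tissue after loess. ola-miR-145 had a ratio to liver of 1.18 ± 0.69, ipu-miR-27e at least 1.17 ± 0.045 against the liver value, where it was not detected, dre-miR-223 a ratio to spleen of 1.12 ± 0.19, and ola-miR-126-3p a ratio to brain of 1.11 ± 0.11. Without normalization the ratios of these probes to the next tissue were 2.06, 1.79, 2.67 and 1.75. The families miR-146, miR-210, known from the response to low oxygen, and miR-199, known from mesenchyme, entered the 10 highest only without normalization. dre-miR-210-3p was 2.44 ± 0.31 times the brain Signal there, and ola-miR-199a-5p 1.98 ± 0.32 times the muscle Signal. After loess ola-miR-199a-5p had 2473 ± 129 in heart, against 5480 ± 807 in muscle, so its order turned with the normalization.

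miRNAs known from white blood cells were high in the heart sample. Of the 18 probes of miR-142, miR-223, miR-150, miR-155 and miR-146, 15 were detected in heart, 4 of the 17 detected anywhere were highest there (36 of 477, or 7.55%, among all probes), and 10 were at least 2-fold above the mean of the other tissues (6.5% among all), none being as far below it. Without normalization 14 were highest in heart (29.6% among all) and 15 at least 2-fold above the mean (41.9% among all). The median log2 difference was 1.05, against −0.51 for all probes, and 2.56 without normalization, against 0.59. Their summed Signal was 45166 in heart, against 15859 in muscle, 7959 in brain, 75398 in spleen and 16712 in liver. Heart was thus second to spleen on this sum, whereas without normalization it was first, at 87039 against 67637 in spleen.

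Within the list the families differed after loess in where they stood highest. ccr-miR-142-3p, known from blood-forming cells, had 4377 ± 309 in heart, against 1267 ± 89.3 in muscle, 555 ± 33.5 in brain, 9176 ± 184 in spleen and 3231 ± 462 in liver. dre-miR-155, known from activated immune cells, had 673 ± 42.1 in heart, against 163 ± 19.5 in muscle and 1370 ± 107 in spleen. Both were lower in heart than in spleen after loess, unlike miR-150. dre-miR-146a had 2927 ± 145 in heart, against 2821 ± 104 in spleen, which did not part them, whereas dre-miR-146b had 1974 ± 120 in heart, against 9318 ± 504 in spleen. Without normalization ccr-miR-142-3p had 9231 ± 689 in heart, against 9139 ± 265 in spleen, and dre-miR-146a was 2.36 times the highest other tissue. For ccr-miR-142-3p the place of heart below spleen thus rested on the normalization.

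Markers of red cells did not stand out in the same way. dre-miR-451, which red cell precursors make in large amounts, had 6476 ± 287 in heart, against 6819 ± 714 in muscle, 2979 ± 170 in brain, 19347 ± 997 in spleen and 6988 ± 490 in liver. All 6 probes of miR-144 and miR-451 were detected in heart, none was highest there, and their median log2 difference was −0.42, close to that of all probes. Their summed Signal was 8279 in heart, against 8866 in muscle, 3704 in brain, 36754 in spleen and 9089 in liver. After loess heart was far below spleen and near muscle and liver. Without normalization the sums were 19370 in heart, against 3876 in muscle, 5542 in brain, 35336 in spleen and 4094 in liver, which put heart above muscle and liver and still below spleen. What blood contributed to the miR-150 and miR-223 of heart was not tested.

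The list medians of vessel and connective tissue miRNAs lay above the median of all probes in heart. Of the 6 probes of miR-126, known from endothelium, 5 were detected and all 5 were detected in heart, with 2 highest there after loess (7.55% among all probes) and 5 without normalization (29.6% among all). Of the 5 probes of miR-143 and miR-145, known from smooth muscle, 1 was highest in heart after loess and 4 without normalization. dre-miR-145 had 6255 ± 257 in heart, against 1980 ± 155 in muscle, 4338 ± 182 in brain, 4001 ± 319 in spleen and 10253 ± 811 in liver. Heart was therefore second to liver after loess, but first without normalization, with a ratio to brain of 2.28 ± 0.14. dre-miR-214, known from mesenchyme, stood lower in heart than in muscle, at 866 ± 30.3 against 5345 ± 250, which is a ratio of 0.162 after loess and 0.698 without normalization. Median log2 differences of these lists were 0.32 for endothelium, 0.53 for smooth muscle and 0.10 for mesenchyme. The mesenchyme probes were spread from −1.06 to 0.51, and ccr-miR-214, at −0.74, lay below the −0.51 of all probes.

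In the other direction, 10 of the 176 probes detected in all 4 of the other tissues (5.68%) were at least 2-fold lower in heart than in each of them after loess. They were 2 probes of let-7i, 4 of miR-7, 2 of miR-216a, dre-miR-206 and ccr-miR-122. No probe passed without normalization (0%), and none after scaling to the spike controls. After quantile normalization 3 passed, the 2 let-7i probes and dre-miR-7a.

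let-7i and miR-7 were the lowest in heart by this measure after loess. dre-let-7i, of the let-7 family of differentiated tissues, had 153 ± 16 in heart, against 860 ± 64.8 in muscle, 4220 ± 241 in brain, 1416 ± 84.6 in spleen and 1503 ± 431 in liver. Muscle, the lowest of the other tissues, was 5.6-fold above heart after loess and 1.24-fold without normalization, where heart had 307 ± 27.5 and muscle 379 ± 30.8. dre-miR-7a, known from brain and endocrine cells, had 78 ± 31.9 in heart, against 366 ± 52.5 in muscle, 1857 ± 90.0 in brain, 815 ± 75.7 in spleen and 694 ± 157 in liver. It was 4.70-fold lower in heart than in muscle after loess and 1.2-fold lower without normalization, a difference then within the spot SDs. One of its heart spots was dim, with a density of 96.94 against 158.82 to 218.32 for the other 4. The probes dre-let-7i and dre-miR-7a were lowest in heart under both settings. The other 3 detected miR-7 probes were lowest in heart after loess alone, and without normalization they were 1.38 to 1.51 times muscle.

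The low value of let-7i was not shared by the let-7 family. dre-let-7a had 4877 ± 324 in heart, against 3523 ± 359 in muscle, 13455 ± 497 in brain, 1946 ± 141 in spleen and 4387 ± 2289 in liver. Of 20 let-7 probes, 19 were detected in heart, and 3 were at least 2-fold below the mean of the other tissues after loess, a smaller share than the 27% of all probes. The family's median log2 difference was −0.11, and 1.51 without normalization. The 2 let-7i probes stood at the low end of that range under both settings, and the sequences differ from dre-let-7a only outside the seed.

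Of the other families at the low end, several had heart values at or near the detection limit. fru-miR-10d, of the miR-10 family that lies in the Hox clusters, had 152 ± 16.1 in heart, against 1250 ± 146 in muscle, 369 ± 33.5 in brain and 688 ± 46.2 in spleen, and was not detected in liver. dre-miR-10b was not detected in heart but had 2447 ± 257 in muscle and 729 ± 74.8 in spleen. Of 16 probes of miR-10 and miR-196 detected anywhere, 3 were detected in heart, against 345 of 477 among all probes. The list median was −1.16. ccr-miR-138, known from brain, had 75.1 ± 11 in heart, against 164 ± 25.5 in muscle, 571 ± 52.1 in brain and 198 ± 18.6 in spleen. Without normalization its heart value of 70.6 ± 9.80 did not part from those of muscle, 59.2 ± 12.4, and spleen, 73.2 ± 9.30.

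Most miR-181 probes were lowest in heart after loess. dre-miR-181b had 507 ± 19.1 in heart, against 1070 ± 96.7 in muscle, 981 ± 50.4 in brain, 2232 ± 139 in spleen and 1051 ± 230 in liver. After loess 11 of the 12 miR-181 probes were lowest in heart, as were 138 of all 477 probes, and 4 were at least 2-fold below the mean of the other tissues, a share close to the 27% of all probes. Without normalization none of the 12 was lowest in heart, the family's median turned to 0.59 above the mean of the others, the same as that of all probes, and dre-miR-181b had 923 ± 42.5 in heart, against 479 ± 44.9 in muscle and 401 ± 94.3 in liver. hhi-miR-7641 had 1367 ± 270 in heart, against 2525 ± 72.6 in spleen, the lowest of the others, and without normalization 3133 ± 631 in heart against 2740 ± 106 in spleen. For both, the low place of heart rested on the normalization.

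**Figure D4:**
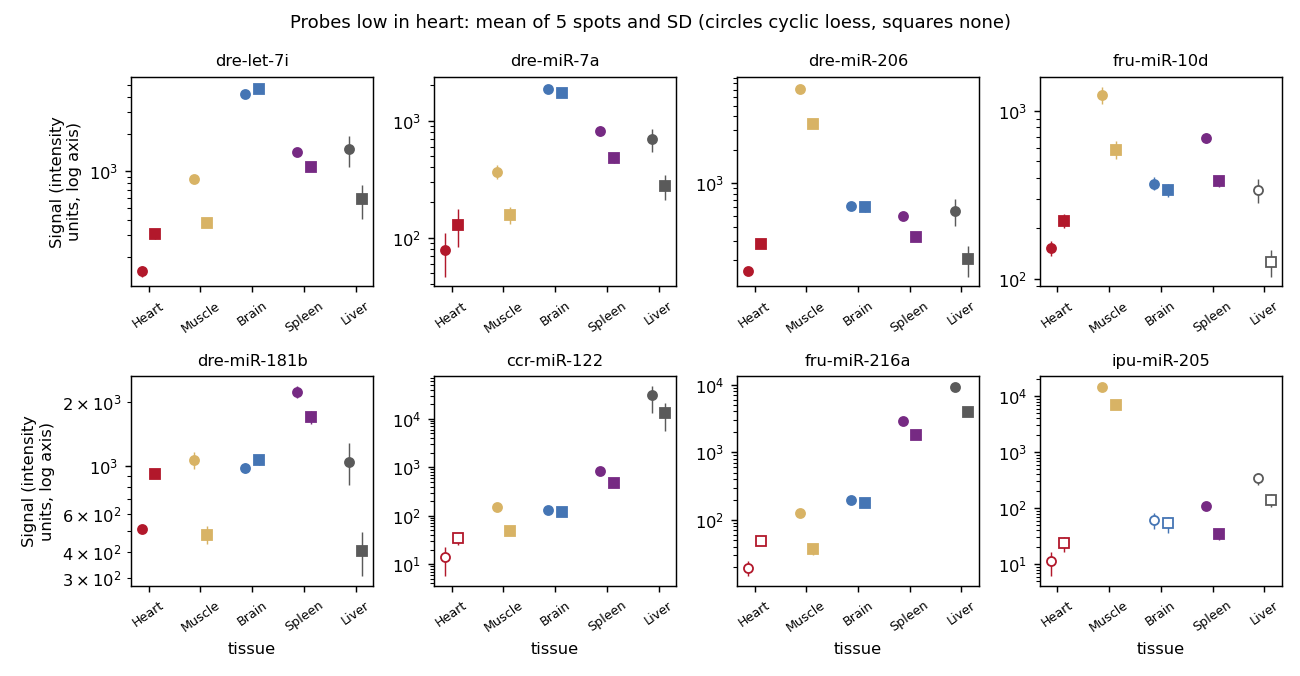
Signal (log axis, own range in each panel) of 8 probes low in heart in the 5 tissues, heart leftmost, as the mean of 5 spots with the SD over spots; circles are after cyclic loess, squares without normalization between arrays, and open symbols mark tissues where the probe was not detected. For dre-let-7i and dre-miR-7a the heart is lowest with both symbols, and for dre-miR-181b only with circles.

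Markers of liver, pancreas, skin and sensory cells were not detected in heart. None of the 12 probes of miR-122, miR-192 and miR-194 was detected there, against 10 detected in at least 1 tissue. Of all 477 probes detected anywhere, 345 were detected in heart. ccr-miR-122, the main miRNA of hepatocytes, was not detected in heart, against 148 ± 14.2 in muscle, 130 ± 5.65 in brain, 845 ± 141 in spleen and 30344 ± 17300 in liver. dre-miR-194a was not detected in heart, against 265 ± 20.1 in spleen and 9516 ± 4496 in liver. Heart was thus the only tissue in which neither was detected, but the detection limits of the arrays differed. Without normalization ccr-miR-122 had 34.2 ± 9.61 in heart and 48.3 ± 7.30 in muscle. That muscle value lay below the lowest detected Signal of heart, 51.6, so detection alone does not part heart from muscle here. fru-miR-216a, known from the pancreas, was not detected in heart, against 125 ± 13.5 in muscle, 195 ± 16.6 in brain, 2886 ± 153 in spleen and 9222 ± 313 in liver, and dre-miR-217 had the same pattern. ipu-miR-205, known from skin, was not detected in heart, against 14267 ± 938 in muscle. dre-miR-203a was likewise not detected in heart, against 8641 ± 559 in muscle. The 9 detected probes of the sensory cluster (miR-96, miR-182 and miR-183) were not detected in heart either. With undetected values at the detection limit, the median log2 differences of heart after loess were −2.76 for the liver list, −2.81 for pancreas, −1.22 for skin and −1.28 for the sensory list. Without normalization they were −1.75, −1.72, −0.62 and −0.70. The high limit of the liver array lowers such values even where liver did not detect the probe. ccr-miR-203b-5p, detected in muscle alone, had −1.20 after loess. The skin and sensory medians thus do not set heart below each other tissue.

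Epithelial miRNAs were present in heart. All 12 probes of miR-200, miR-141 and miR-429 were detected there, against 345 of the 477 probes detected anywhere. After loess ccr-miR-200a had 869 ± 67.8 in heart, against 3009 ± 404 in muscle, 418 ± 26.5 in spleen and 4528 ± 487 in liver. Without normalization it had 1447 ± 106 in heart, against 1429 ± 192 in muscle, 281 ± 20.8 in spleen and 1832 ± 199 in liver. Heart and muscle then did not part. It was not detected in brain. After loess none of the 12 was 2-fold above or below the mean of the others (6.5% above and 27% below among all probes). Without normalization 8 were at least 2-fold above it, against 200 of all 477 probes. With scaling to the spike controls it was also 8, against 171 of the 477. The heart sample thus carried miR-200 Signal without that of miR-203 and miR-205.

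Of the 48 probes of neuronal and glial families, 39 were detected anywhere and 19 in heart, against 477 and 345 of all 663 probes. dre-miR-124, of neurons, was not detected in heart, against 12148 ± 607 in brain, while dre-miR-9-5p had 312 ± 17.8 in heart against 38583 ± 1330 in brain. By contrast dre-miR-153a had 1308 ± 203 in heart, against 110 ± 18.0 in muscle, 4057 ± 315 in brain and 100 ± 10.2 in spleen. Heart was second to brain at a ratio of 0.322 ± 0.056, and 13.1-fold above spleen. It was the only probe of this list at least 2-fold above the mean of the others after loess, and 25 of 39 were at least 2-fold below it (27% among all probes), with a list median of −1.50. Without normalization 7 were at least 2-fold above and 11 at least 2-fold below (41.9% and 9.43% among all), with a median of −0.56. ola-miR-128 had 1529 ± 104 in heart, against 11064 ± 532 in brain and between 820 and 1213 in the other tissues.

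Some bright probes of heart belonged to widely expressed families. dre-miR-26a had 10697 ± 362 in heart, against 14407 ± 1041 in muscle, 12456 ± 1461 in brain, 9935 ± 279 in spleen and 12731 ± 1706 in liver, and so parted little between tissues. Without normalization it was highest in heart, at 30376 ± 1266, against 22434 ± 2763 in brain. Probes differ in how well they bind, so their order within the heart is only a description. By it the 5 brightest families after loess were novel_13, miR-499, miR-133 (through pol-miR-133-5p), miR-26 and miR-145, and without normalization miR-133, miR-26, novel_13, miR-499 and miR-451.

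Of the other lists, miR-29 lay toward the heart-high side. dre-miR-29a, which targets collagen messages in mammals, had 1314 ± 83.3 in heart, against 263 ± 17.4 in muscle, 2670 ± 96.5 in brain and 427 ± 28.9 in spleen. dre-miR-101a had 1900 ± 52.7 in heart, against 582 ± 46.4 in muscle, 2371 ± 109 in brain and 660 ± 30.8 in spleen. After loess heart was second to brain for both. For dre-miR-101a the order turned without normalization, with a ratio of heart to the highest other tissue of 1.31, and after quantile normalization (1.04) and the spike scaling (1.31). The paper reported sturgeon miR-101a as an exception in its real-time PCR, which gave a much lower heart level than the array. The medians of log2 heart minus the mean of the others were 0.71 for the miR-29 list (6 of 8 probes detected) and 0.10 for miR-26 with miR-101 (10 of 11), and 0.47 for miR-99, miR-100 and miR-125 (11 of 12).

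At the other side after loess, dre-miR-21, which is raised by injury and inflammation in many mammalian tissues, had 4129 ± 226 in heart, against 10895 ± 648 in muscle, 4606 ± 231 in brain, 16481 ± 1068 in spleen and 12830 ± 6752 in liver. Among the lists low in heart, medians were −1.30 for miR-21, −1.37 for miR-204, −0.96 for miR-103 and miR-107, −0.94 for miR-22, −1.03 for miR-34, −2.63 for miR-206 and −2.95 for miR-7. Without normalization the sign turned for 5 of these 7 lists, at 0.38 for miR-21, 0.10 for miR-204, 0.52 for miR-103 and miR-107, 0.53 for miR-22 and 0.20 for miR-34, each below the 0.59 of all probes, and stayed negative for miR-206 at −1.12 and miR-7 at −1.38. The ratio of heart to muscle for dre-miR-21 likewise was 0.379 after loess and 2.28 without normalization. Other lists stood less low after loess, where the median of all probes was −0.51. They were miR-130, miR-301 and miR-454 at −0.77, miR-15, miR-16 and miR-457 at 0.03, miR-30 at −0.21 and the miR-17 cluster with relatives at −0.43. In the same range were miR-221 and miR-222 at −0.10, miR-148 and miR-152 at −0.44, miR-140 and miR-455 at −0.50, and miR-462 and miR-731 at −0.30. Without normalization the medians were −0.05 for the miR-130 list, 1.46 for the miR-15 list, 1.41 for miR-30 and 1.09 for the miR-17 cluster. They were 1.28 for the miR-221 list, 1.03 for the miR-148 list, 0.66 for the miR-140 list and 1.22 for the miR-462 list. All but the miR-130 list then lay above the 0.59 of all probes. After loess the list of miR-23, miR-24 and miR-27 had a median of −0.06. Of its 25 detected probes 11 were highest in heart (7.55% among all probes), 7 of them with a ratio above 1 once undetected tissues were set to the detection limit. Without normalization 22 of the 25 were highest in heart (29.6% among all), and the list median was 1.23. The 2 detected probes of miR-430 and miR-202, known from embryo and gonad, were not detected in heart.

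**Figure D5:**
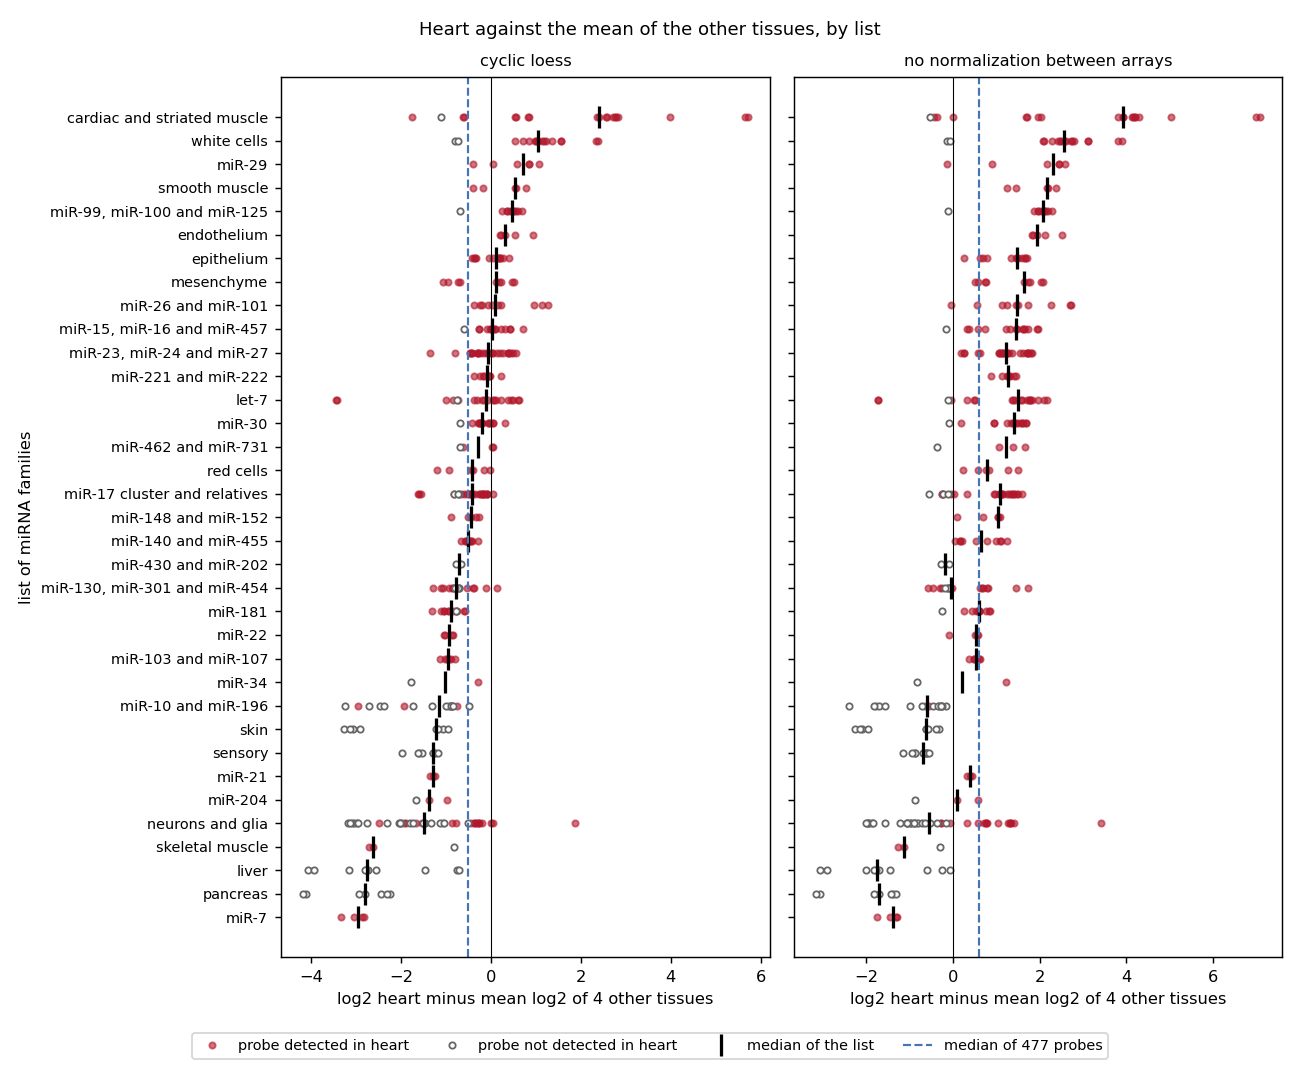
Log2 heart Signal minus the mean log2 Signal of the 4 other tissues (undetected values at the detection limit) for each probe of 35 lists of miRNA families, after cyclic loess (left) and without normalization between arrays (right); red points were detected in heart, open points were not, bars are list medians and the dashed line is the median of all 477 probes, −0.51 on the left and 0.59 on the right. Striated muscle and white cell lists lie highest, and miR-7, pancreas, liver and skeletal muscle lowest, on both sides.

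Of the 48 probes for the study's own sequences, 16 were detected in heart, against 345 of all 663 probes. novel_13 and novel_63 are described above. novel_46, which has the seed GUAAACA of miR-30, had 4751 ± 481 in heart after loess. Its Signal was 5072 ± 525 in muscle, 4720 ± 167 in brain, 2627 ± 74.3 in spleen and 5139 ± 245 in liver. After loess it thus did not part heart from muscle, brain or liver. For the miR-30 list, which leaves out novel_46, such likeness depended on the scaling. Its median ratio of heart to muscle was 0.99 after loess and 4.53 without normalization, and that to liver 0.99 and 5.05. novel_23, found in heart and muscle alone, had a heart Signal of 294 after loess.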

How the data were processed

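Total RNA of 5 tissues was size selected for small RNAs, tailed, ligated to a tag and hybridized in single-color (Cy3) mode to µParaflo arrays. The deposited scanner files hold the raw intensity of each spot (median density over its pixels, on a linear scale) and its SD, digitized by the authors before any background subtraction or normalization. A deposited table of intensities processed by the authors (background subtracted and LOWESS normalized on the linear scale) was not used for levels: by probe name its Spearman correlation with the scanner-based Signal lay between −0.0068 and 0.078. Its medians were 36.6 in heart, 52.3 in muscle, 40.1 in brain, 22.7 in spleen and 30.4 in liver, and its row order stays unknown.

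Intensities were corrected with normexp (offset 50, limma 3.58.1 in R 4.3.3), normalized on the log2 scale by cyclic loess (3 iterations), the offset was removed and 5 spots were averaged to Signal. Further steps were run in Python 3.11.15 (numpy 2.4.6, pandas 2.3.3, scipy 1.17.1). Detection required that at least 50% of the spots of a probe met 2 limits. The density lay over 3 background SDs (from empty spots) above the local background, the median of 20 neighbouring empty spots. The pixel SD was under 0.5 of the density left after subtracting that local background. An undetected value was set to the higher of its own Signal and the lowest detected Signal of that array (49.6 in heart, 28.0 in muscle, 58.2 in brain, 56.1 in spleen and 365.6 in liver after loess), and ratios against it are bounds, written as at least. Errors of ratios combine both SDs, or use that of heart where the other value is a bound. The number of arrays limits the precision. Named miRNAs are the marker and list families, the 10 families highest and the 10 lowest in heart relative to the nearest other tissue (Signal above 500 in heart, or in another tissue) under each of loess and no normalization, and the 5 brightest in heart; pol-miR-133-5p beside dre-miR-133b-5p, and novel_46 and novel_23, were added after their values were seen. Members and lists were chosen with earlier results of these data known. The steps were tested on simulated data in which equal numbers of probes were raised and lowered in heart. That setting cannot show how a shift of most heart probes at once would be handled. Alternatives were no normalization, quantile normalization, scaling to the 75th percentile, plain subtraction, the median over spots, 5 times the background SD, no detection filter, Signal above 500 in at least 1 tissue, a fold of 1.5 and, added after seeing the data, scaling to the spike controls.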

Additional observations from a re-analysis of the deposited data

How the results depend on the processing

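The number of probes highest in heart was 36 after loess, but 141 without normalization, 57 after quantile normalization, 12 with scaling to the 75th percentile, 73 with no detection filter, 19 with Signal above 500 in at least 1 tissue and 122 with scaling to the spike controls, a setting chosen after seeing the data. The number at least 2-fold higher in heart than in each other tissue was 4, but 17 without normalization, 14 with the spike scaling and 7 with a fold of 1.5. The number at least 2-fold lower than in each was 10, but 0 without normalization and with the spike scaling, 3 after quantile normalization, 4 with 5 times the background SD, 42 with no detection filter and 19 with a fold of 1.5. Against the mean of the other tissues, the 31 higher probes became 200 without normalization, 171 with the spike scaling and 47 with a fold of 1.5. The 129 lower probes became 45, 58 and 227 under those settings, 73 after quantile normalization and 253 with scaling to the 75th percentile. The split of higher against lower therefore turned with the scaling, and the median log2 difference of all 477 probes with it, from −1.13 with scaling to the 75th percentile and −0.33 after quantile normalization to 0.41 with the spike scaling and 0.59 without normalization.

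The ratio of heart to the highest other tissue for dre-miR-499, 5.48 after loess, was 16.1 without normalization, 13.2 with the spike scaling and 2.83 with scaling to the 75th percentile, and stayed within its spot error after quantile normalization, plain subtraction and with the median over spots (6.18, 5.59 and 6.05). Single probes changed the tissue that was highest. dre-miR-193a turned to 0.669 with scaling to the 75th percentile. dre-miR-26a, at 0.742 after loess, turned to 1.35 without normalization, 1.8 after quantile normalization and 1.36 with the spike scaling. dre-miR-30c (0.714) turned to 1.13, 1.46 and 1.14 under these settings, and dre-miR-101a (0.801) to 1.31, 1.04 and 1.31. ipu-miR-142 (0.492) turned to 1.05 without normalization, and dre-miR-126a-3p (0.958) to 1.67. dre-miR-146a (1.04) fell to 0.873 after quantile normalization. With scaling to the 75th percentile dre-miR-223 (1.12) fell to 0.939 and ola-miR-145 (1.18) to 0.899, both within their spot errors. With the median over spots ola-miR-145 fell to 0.861. The cause was not tested. The high background of the liver array, where the lowest detected Signal was 365.6, limits what can be said of low miRNAs there. No paired analysis was possible because each tissue had 1 array and no test was made.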
